A study of Mus musculus with 8 samples.

Results

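The Ube2 genes encode the ubiquitin-conjugating (E2) enzymes, and they were read here as a family in mouse gastrocnemius (GAS) muscle after knockdown of MYTHO. Members were taken by name: every row of the deposited expression table with a gene symbol beginning in Ube2 was kept, with 1 row per symbol, the row of highest mean signal. This gave 38 genes in 39 of the 22206 rows, since *Ube2v1* had a second row. The muscles came from 4 male C57/Bl6j mice given as 14 weeks old, and 3 weeks had passed since an adeno-associated virus (AAV) was injected into the muscle. In each mouse, the right leg received AAV sh-RNA MYTHO, a short hairpin against *D230025D16Rik*, the gene that encodes MYTHO (MYTHO-KD, group MYTHO). The contralateral leg received a scrambled hairpin (AAV sh-RNA scrmb, group scrmb). Both legs therefore carried virus and a hairpin, and no leg without virus was compared. The hairpin and the side of the body cannot be told apart. Both hairpins were driven by the U6 promoter, which is not specific to a cell type, in a virus of serotype 1, which favours muscle fibres. Which cells carried the hairpins was not measured. There were 4 arrays per group, and the mice are called A to D.

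A ubiquitin-activating E1 enzyme charges ubiquitin, an E2 enzyme takes it over on its active cysteine, and an E3 ligase brings the charged E2 to a protein substrate. With many E3 ligases the E2 largely sets which chain is built. Chains linked through lysine 48 send proteins to the proteasome, and chains linked through lysine 63 serve in signalling, DNA repair and autophagy. In muscle this system, together with autophagy, carries much of the protein breakdown during wasting. A few E2 enzymes work with related modifiers such as NEDD8 or ISG15.

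The targeted gene was low in every leg that had received its hairpin. *D230025D16Rik* read 11.35, 11.31, 10.78 and 11.05 on the log2 signal scale in the scrmb legs (mouse A first, then B, C and D, an order kept throughout) and 8.16, 8.20, 8.80 and 8.08 in their MYTHO legs. The groups did not overlap, and the MYTHO level was 14.2% of the scrmb level (log2 fold change −2.81, SE 0.21; limma adjusted p = 0.00044; exact permutation p = 0.0286, two-sided, the smallest that free relabelling of 4 arrays against 4 allows). Swapping legs only within mice allows 16 arrangements, and the exact p was then 0.125, the smallest they can give. In all 4 mice the MYTHO leg was the lower one. The 8 arrays had medians of 6.39 to 6.47, and the mean of the 38 Ube2 genes ran from 9.45 on the MYTHO array of mouse C to 9.73 on the scrmb array of mouse D. Muscle markers were near the ceiling of the scale, with an average over 6 genes of 18.93 to 19.19. Of these 6 genes 1 was higher at an unadjusted p under 0.05 (*Mb*, myoglobin, log2 fold change 0.55, adjusted p = 0.287) and 2 were saturated on all arrays. Of 8 slow-fibre genes 7 were higher in the MYTHO legs at an unadjusted p under 0.05 and 0 after adjustment. All 8 were positive, with a median log2 fold change of 1.59 (1.28 to 2.44), and their average overlapped between groups (11.61 to 13.70 in scrmb, 11.68 to 14.88 in MYTHO). In a piece of whole muscle, fewer cells of a type and less RNA per cell cannot be told apart.

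Across the family, most Ube2 genes were close to their scrmb level. The median log2 fold change, MYTHO minus scrmb, was 0.04 over the 38 genes, beside −0.005 over all rows. The interquartile range was −0.20 to 0.17, beside −0.21 to 0.19 over all rows. Of the 38 genes, 21 had a positive value, 16 a negative one and *Ube2o* 0.00, and 16 took both signs over the alternative analyses and with single arrays left out. The precision was enough to bound nearly all of them: for 36 genes the 95% interval of the fold change stayed within 2-fold in either direction, and for 15 it stayed within 1.5-fold.

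No Ube2 gene passed an adjusted p of 0.05 in limma, a level reached by 0.027% of all rows. A gene is said here to pass where its unadjusted p is under 0.05. By that rule 3 members were lower in the MYTHO legs (*Ube2u*, *Ube2k* and *Ube2q2*), a share of 7.89% beside 7.58% of all rows. By the same rule 1 member, *Ube2l6*, was higher, a share of 2.63% beside 4.81% of all rows. *Ube2u* was the only member that also differed by at least 2-fold, which 1.25% of all rows did in the lower direction. All 4 MYTHO arrays lay below all 4 scrmb arrays in 2 members (*Ube2u* and *Ube2q2*), beside 3.87% of all rows, and above them in 0 members, beside 2.59%. With the mouse as a fixed block, which compares the legs within each mouse and is the block meant below, 1 member was higher, beside 4.94% of all rows, and 2 were lower, beside 7.66%. The number of members higher was 3 without the scrmb array of mouse A (4.53% of all rows), 2 without that of mouse D (5.65%) and 0 without the MYTHO array of mouse D (4.91%). Without the MYTHO array of mouse C, 4 members (10.5%) were higher with no overlap, beside 4.62% of all rows in the same run. Without the scrmb array of mouse D, 5 members (13.2%) were lower with no overlap, beside 7.84% of all rows. After quantile normalization of all 8 arrays, 4 members (*Ube2d3*, *Ube2k*, *Ube2q2* and *Ube2u*, 10.5%) were lower with no overlap, beside 3.72% of all rows. Each of these counts rests on at most 5 of 38 genes and changes with the array left out or the scaling, and none was tested against the array as a whole. With 1 array left out, the log2 fold change of 32 of the 38 members moved by over 1.5 times or changed sign, and that of *Ube2d3*, *Ube2k*, *Ube2l6*, *Ube2q2*, *Ube2r2* and *Ube2u* did not.

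**Figure D1:**
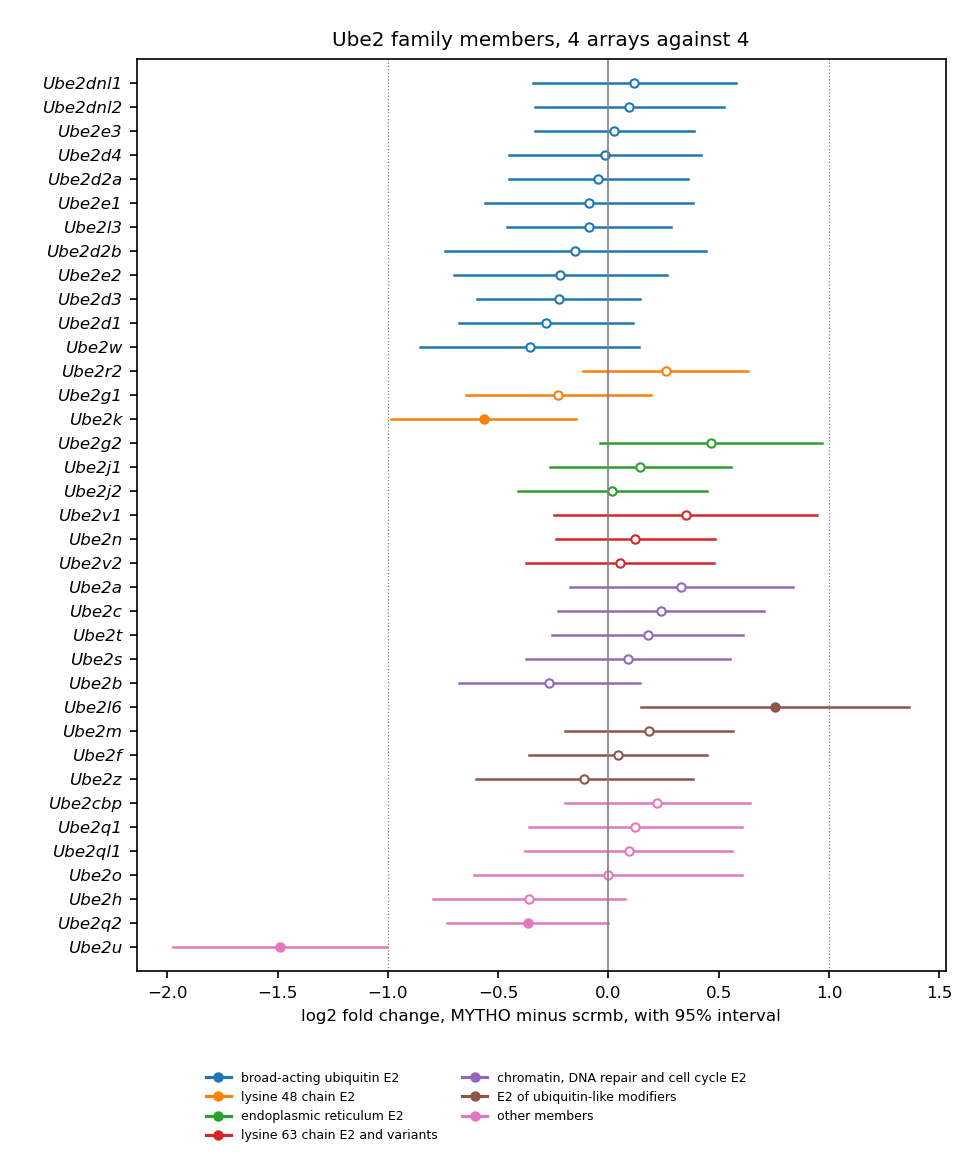
Log2 fold change (MYTHO minus scrmb, x axis) of 37 of the 38 Ube2 genes, each with its 95% interval from limma over 4 arrays per group; colours give the role, filled points an unadjusted p under 0.05, and dotted lines a 2-fold difference. Most intervals cover 0, *Ube2u* lies apart at −1.49, and *Ube2l6* is the highest at 0.76.

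The member with the clearest difference was *Ube2u*, an E2 whose substrates are little characterised. It read 6.14, 6.22, 5.90 and 5.75 in the scrmb legs and 4.04, 5.0, 4.41 and 4.61 in the MYTHO legs. Every MYTHO array was below every scrmb array, and the MYTHO leg was the lower one in 4 of 4 mice, with log2 differences of −2.10, −1.22, −1.49 and −1.14. The log2 fold change was −1.49 (SE 0.22; 95% interval −1.97 to −1.0), or 35.7% of the scrmb level, with a limma adjusted p = 0.0609. Its unadjusted p was the seventh smallest of all 22206 rows, and the log2 fold change ranked 48 from the lowest. The adjusted p ran from 0.019 to 0.231 over the alternative analyses and leave-one-out runs in which the gene was tested, with 0.0443 without the scrmb array of mouse D and 0.156 with the mouse as a block. The signal was low, at the 27.8th percentile of mean signal. The table holds no detection calls, so how far *Ube2u* stood above background in either group was not measured.

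*Ube2u* lies on chromosome 4 (mm10, chr4:100478867-100550145), between *Ror1* and *Cachd1* among the genes measured. *Ror1* had a log2 fold change of 0.48 (adjusted p = 0.471) and *Cachd1* of 0.34 (adjusted p = 0.652), so neither neighbour was lower in the MYTHO legs. *Ube2u* also differed from most of its family in the sequence before its start. The 250 bases upstream were taken from RefSeq (GRCm38.p6, the assembly that mm10 names), where 30 of the 38 members had an entry, and were searched for CG, which reads the same on both strands. With CG-rich defined as over 50% G and C and an observed-to-expected CG ratio over 0.6, 23 of 30 members were CG-rich, beside 31.2% of 27025 genes. The median number of CG was 21 in the members and 6 in all genes. *Ube2u* had 6 and *Ube2l6* 11, both outside the CG-rich class, while *Ube2k* had 29 and *Ube2q2* 35. The windows of *Ube2u* (chr4:100478617-100478866), *Ube2k* (chr5:65536995-65537244) and *Ube2l6* (chr2:84798578-84798827) are shown because these members had the 3 lowest p-values. All are on the plus strand, 5′ to 3′, with each CG in capitals.
Ube2u: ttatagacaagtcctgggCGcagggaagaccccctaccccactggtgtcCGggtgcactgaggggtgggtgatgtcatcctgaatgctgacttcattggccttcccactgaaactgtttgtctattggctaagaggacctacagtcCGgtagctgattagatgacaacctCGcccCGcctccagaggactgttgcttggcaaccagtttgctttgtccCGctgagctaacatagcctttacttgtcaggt
Ube2k: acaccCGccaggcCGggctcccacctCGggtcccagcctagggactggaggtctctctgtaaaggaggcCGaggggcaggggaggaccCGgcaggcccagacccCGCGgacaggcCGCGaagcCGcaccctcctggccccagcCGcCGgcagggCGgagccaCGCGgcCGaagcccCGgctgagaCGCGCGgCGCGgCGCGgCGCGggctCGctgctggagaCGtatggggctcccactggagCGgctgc
Ube2l6: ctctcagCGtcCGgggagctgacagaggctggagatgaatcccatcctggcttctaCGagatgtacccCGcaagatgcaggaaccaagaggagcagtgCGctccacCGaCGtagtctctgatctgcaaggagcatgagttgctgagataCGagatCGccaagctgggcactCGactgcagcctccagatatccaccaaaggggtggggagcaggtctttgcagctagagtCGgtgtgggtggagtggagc
Capitals are sparse in *Ube2u* and *Ube2l6* and dense in *Ube2k*. The windows were not measured in the arrays, and whether CG content has a part in the differences was not tested.

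Of the E2 enzymes that work with many ligases, 12 were measured, and 0 passed an unadjusted p of 0.05. These include the *Ube2d* genes, the *Ube2e* genes, *Ube2l3*, which serves HECT and RBR ligases, and *Ube2w*, which attaches ubiquitin to protein N-termini. Their log2 fold changes ran from −0.36 to 0.12 with a median of −0.09, and 9 of 12 were negative. *Ube2w* had the largest absolute value. It read 7.23, 7.48, 7.68 and 7.56 in the scrmb legs, and 7.48, 7.52, 6.84 and 6.68 in the MYTHO legs. Mice C and D were lower by 0.84 and 0.88 log2 units in the MYTHO leg while mice A and B were not, and the groups overlapped (log2 fold change −0.36, SE 0.23, adjusted p = 0.564). With 1 array left out it ran from −0.49, without the MYTHO array of mouse B, to −0.21, without that of mouse D (adjusted p = 0.779). *Ube2d1* had −0.28 and *Ube2d3* −0.22, with 95% intervals of −0.68 to 0.11 and −0.59 to 0.14. *Ube2d2a* had −0.04 (−0.45 to 0.36) and *Ube2l3* had −0.09 (−0.46 to 0.28). *Ube2e1*, *Ube2e2* and *Ube2e3* had −0.09, −0.22 and 0.03.

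Among the 3 enzymes that build lysine 48 chains, *Ube2k*, which makes such chains with little help from a ligase, was lower in the MYTHO legs. It read 12.26, 12.55, 12.28 and 11.99 in the scrmb legs, and 12, 11.59, 11.46 and 11.77 in the MYTHO legs. The lowest scrmb value, in mouse D, was 0.01 below the highest MYTHO value, in mouse A, so the groups met, and the MYTHO leg was the lower one in 4 of 4 mice. The level was 67.6% of scrmb (log2 fold change −0.56, SE 0.19, 95% interval −0.98 to −0.15; limma adjusted p = 0.265). The unadjusted p stayed under 0.05 in all 18 alternatives run. *Ube2g1* had −0.23 (−0.65 to 0.19). *Ube2r2*, an E2 of cullin-RING ligases, had 0.26 (−0.11 to 0.63), with the MYTHO leg higher in 4 of 4 mice.

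The 3 E2 enzymes of the endoplasmic reticulum, which serve the removal of misfolded proteins there, had positive values, and 0 passed. *Ube2g2*, whose row also names the microRNA gene *Mir1930* within it, read 9.72, 9.22, 8.87 and 9.87 in the scrmb legs, and 9.88, 9.95, 10.03 and 9.68 in the MYTHO legs. The MYTHO values were the more closely grouped, mouse D ran the other way, and the groups overlapped (log2 fold change 0.47, SE 0.23, adjusted p = 0.442). Single arrays moved it: without the scrmb array of mouse A it was 0.57 (adjusted p = 0.418) and without that of mouse D 0.61 (adjusted p = 0.251), both passing, and without that of mouse C it was 0.28 (adjusted p = 0.731). *Ube2j1* had 0.14 (−0.27 to 0.56) and *Ube2j2* 0.02 (−0.41 to 0.45), with values of −0.11 to 0.15 over the alternatives.

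Lysine 63 chains are built by *Ube2n* together with *Ube2v1* or *Ube2v2*, E2-like proteins that lack the active cysteine. None of the 3 passed. *Ube2n* was tightly measured, with 11.43 to 11.54 in the scrmb legs and 11.44 to 11.76 in the MYTHO legs (log2 fold change 0.12, 95% interval −0.24 to 0.48). *Ube2v2* had 0.05 (−0.37 to 0.48). The brighter *Ube2v1* row read 14.49, 13.83, 13.09 and 13.90 in the scrmb legs, and 14.24, 14.54, 14.06 and 13.87 in the MYTHO legs. The groups overlapped, with mice B and C higher and mice A and D slightly lower (log2 fold change 0.35, SE 0.27, adjusted p = 0.657). It was 0.57 without the scrmb array of mouse A (adjusted p = 0.426), where it passed, and 0.10 without that of mouse C (adjusted p = 0.928). That row also names the pseudogene *Gm8325*, and its probe set identifier carries chromosome 3, where *Gm8325* lies, whereas *Ube2v1* and the identifier of its own row are on chromosome 2. The row that names *Ube2v1* alone had 0.10 (adjusted p = 0.871), and whether the brighter row read the pseudogene was not tested.

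The 5 members with roles in chromatin, DNA repair and the cell cycle had a median of 0.18, and 0 passed. *Ube2a* and *Ube2b*, the paired mouse forms of yeast RAD6, act on histone H2B and on PCNA. *Ube2a* read 7.84, 7.95, 7.22 and 7.90 in the scrmb legs, and 8.01, 7.99, 7.69 and 8.54 in the MYTHO legs. The MYTHO leg was higher in 4 of 4 mice, by 0.04 to 0.64 log2 units, but mouse C was low in both legs and the groups overlapped (log2 fold change 0.33, SE 0.23, adjusted p = 0.611). It was 0.16 without the scrmb array of mouse C (adjusted p = 0.869) and 0.17 without the MYTHO array of mouse D (adjusted p = 0.827). *Ube2b* went the other way in 4 of 4 mice, with 12.76, 12.88, 12.88 and 12.88 in the scrmb legs and 12.72, 12.79, 12.13 and 12.69 in the MYTHO legs. Most of its log2 fold change of −0.27 (SE 0.19, adjusted p = 0.612) came from mouse C, where the difference was −0.75. *Ube2c* and *Ube2s*, which start and lengthen lysine 11 chains for the anaphase-promoting complex, had 0.24 and 0.09, and *Ube2t*, of the Fanconi anaemia pathway, had 0.18. With 1 array left out these ran from 0.11 to 0.35, from −0.02 to 0.20 and from 0.04 to 0.28. *Ube2c* was among the 2 members in the lowest 25% of the array by signal, and 0 of 6 markers of cycling cells passed (average 5.23 to 5.39 in scrmb, 5.35 to 5.49 in MYTHO).

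Of the 5 members that handle ubiquitin-like modifiers or are charged by another E1 as well, *Ube2l6* was the one that passed. It is the E2 of ISG15, a modifier induced by interferon. It read 6.13, 6.04, 6.10 and 6.49 in the scrmb legs, and 6.92, 7.04, 6.15 and 7.67 in the MYTHO legs. Mice A, B and D were higher by 0.79, 1.00 and 1.18 log2 units in the MYTHO leg and mouse C by 0.05, and through mouse C the groups overlapped. The log2 fold change was 0.76 (SE 0.28, 95% interval 0.15 to 1.36), or 1.69-fold, with an adjusted p = 0.303 by limma. Without the MYTHO array of mouse D it was 0.51 (adjusted p = 0.454) and no longer passed an unadjusted 0.05, and without that of mouse C it was 1.02 (adjusted p = 0.214). Mouse C also had the smallest difference in *D230025D16Rik*, −1.98, beside −3.19, −3.11 and −2.97 in mice A, B and D; whether the degree of knockdown bears on *Ube2l6* was not tested. The NEDD8 enzymes *Ube2m* and *Ube2f* had 0.18 and 0.04, and *Ube2z*, which is charged by *Uba6*, had −0.11.

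The other genes of the ISG15 cycle were set beside *Ube2l6*, and 0 of 4 passed. *Isg15* itself read 4.30, 4.63, 4.59 and 3.44 in the scrmb legs, and 4.45, 4.67, 4.53 and 4.88 in the MYTHO legs, the low scrmb value being in mouse D (log2 fold change 0.39, adjusted p = 0.580). Without that array it was 0.13 (adjusted p = 0.821). *Uba7*, its E1, read 5.64, 6.24, 6.25 and 6.20 against 6.32, 6.30, 6.27 and 6.68, with all MYTHO arrays above all scrmb arrays by a narrow margin (0.31, adjusted p = 0.566). The ligase gene *Herc6* had −0.14 and the protease gene *Usp18* 0.04.

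The remaining 7 members hold E2 enzymes with long extensions and *Ube2cbp*, a ligase-type protein that binds an E2 and is not itself one. *Ube2q2* read 11.33, 11.32, 11.37 and 11.32 in the scrmb legs, a spread of 0.05, and 10.98, 10.71, 11.03 and 11.16 in the MYTHO legs. All MYTHO arrays were below all scrmb arrays, with the MYTHO leg lower by 0.16 to 0.61 log2 units in 4 of 4 mice. The log2 fold change was −0.36 (SE 0.17), with an adjusted p = 0.403 by limma. It passed an unadjusted 0.05 in 6 of 18 alternatives and not with the mouse as a block. *Ube2h*, the E2 of the CTLH ligase, had −0.36 (−0.80 to 0.08) and was lower in 4 of 4 mice, with −1.06 in mouse C. The others, *Ube2o*, *Ube2q1*, *Ube2ql1* and *Ube2cbp*, had 0.00, 0.12, 0.09 and 0.22.

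**Figure D2:**
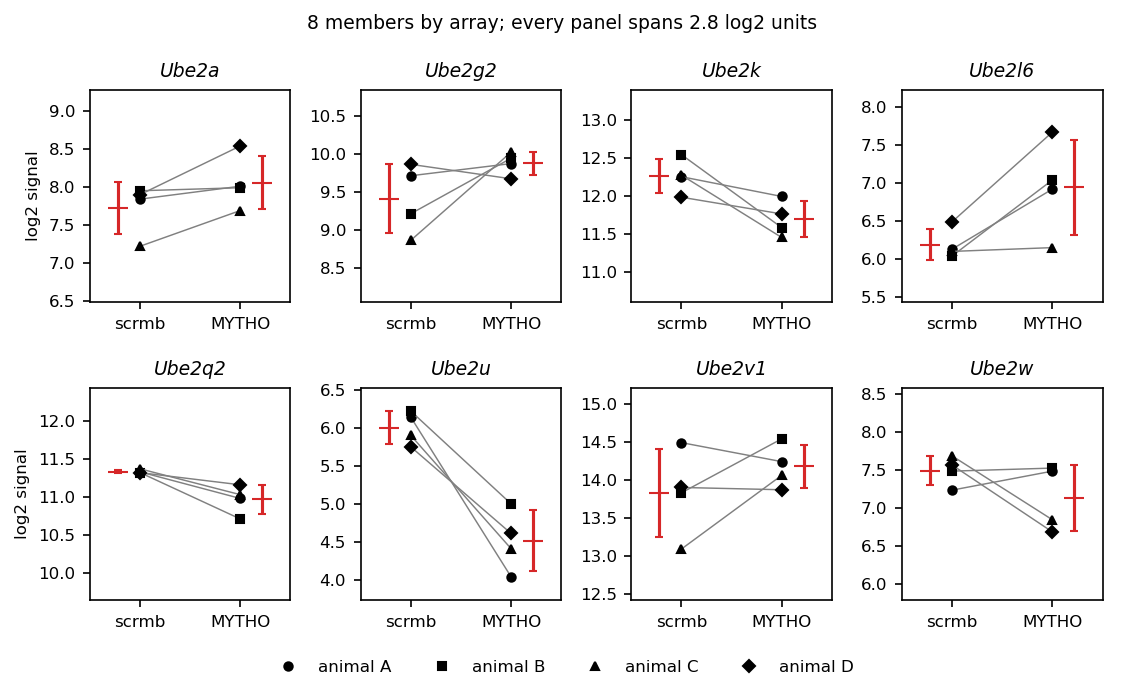
Log2 signal (y axis, each panel spanning 2.8 units) of 8 Ube2 genes in the scrmb and MYTHO legs, with symbols for mice A to D, grey lines joining the legs of a mouse, and red bars for the mean and SD of 4 arrays. The groups separate in *Ube2u* and *Ube2q2*, meet within 0.01 in *Ube2k*, and overlap in *Ube2l6* through mouse C, whose line is nearly flat.

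Taken mouse by mouse, the family did not move as 1 body. The median difference between the legs over the 38 genes was 0.12 in mouse A and 0.04 in mouse B, but −0.07 in mouse C and −0.04 in mouse D. The MYTHO leg was higher for 22, 21, 16 and 17 genes and lower for 15, 17, 22 and 20. Only 8 genes kept 1 direction in all 4 mice: *Ube2u*, *Ube2k*, *Ube2q2*, *Ube2h* and *Ube2b* were lower, and *Ube2l6*, *Ube2a* and *Ube2r2* higher. Those 5 and 3 of 38 genes compare with 10.8% and 8.94% of all rows.

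**Figure D3:**
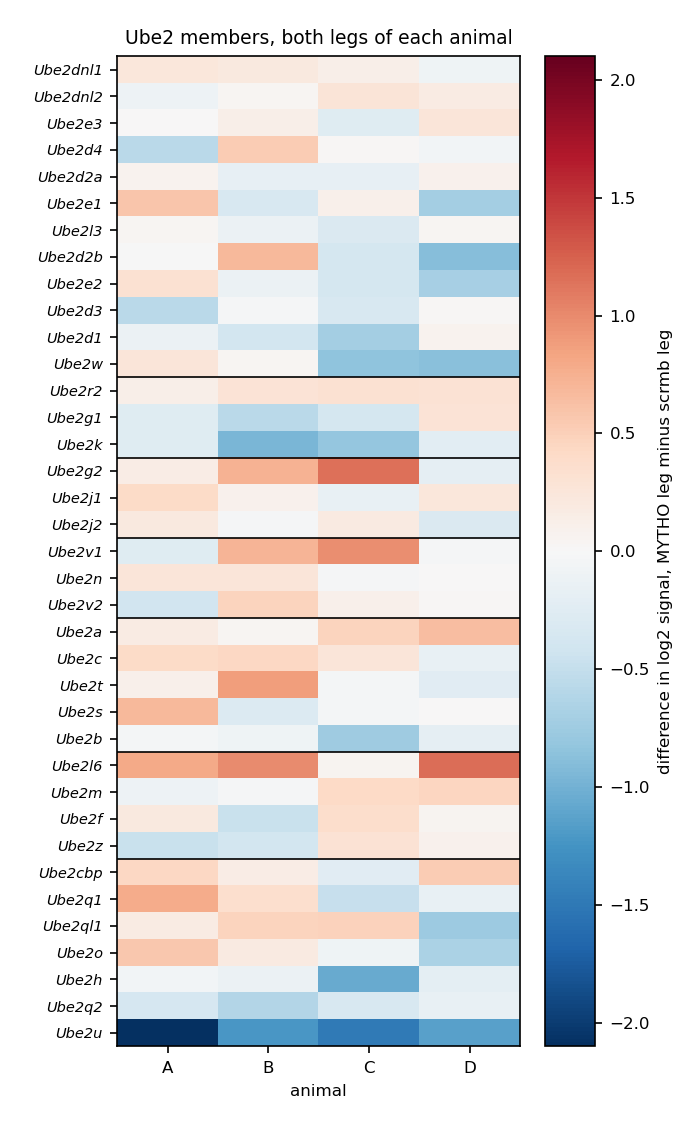
Difference in log2 signal between the MYTHO and the scrmb leg of each mouse (columns A to D) for 37 of the 38 Ube2 genes, grouped by role (black lines); red is higher and blue lower in the MYTHO leg. Apart from *Ube2u*, blue in all 4 mice at −1.14 to −2.10, most genes change colour between mice, as *Ube2ql1* does from 0.49 in mouse C to −0.77 in mouse D.

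The enzymes before and after the Ube2 step were read from lists of E1 enzymes, modifiers, further E2 enzymes and ligases. Of 103 such genes, 4 passed higher (3.88%, beside 4.81% of all rows) and 5 lower (4.85%, beside 7.58%), 0 passed after adjustment, and their median was 0.01. All MYTHO arrays lay above all scrmb arrays in 8 of them (7.77%, beside 2.59%) and below in 4 (3.88%, beside 3.87%). Of 4 ubiquitin genes 0 passed, 1 had a positive value and 3 a negative one, and the median was −0.08. The positive one was *Rps27a*, which encodes ubiquitin fused to a ribosomal protein (0.20, adjusted p = 0.797). It had 0.45 without the scrmb array of mouse D (adjusted p = 0.323), where it passed, and 0.09 without the MYTHO array of mouse D. Of the 11 E1 genes 0 passed, and the largest value was that of *Atg7*, the E1 of the autophagy conjugation systems (0.46, adjusted p = 0.470, passing with the mouse as a block or without the MYTHO array of mouse C). *Uba1*, the main E1 of ubiquitin, had −0.09. Of 8 E2 genes under other names 0 passed, 2 had a positive value and 6 a negative one, and the median was −0.14. *Cdc34*, the close relative of *Ube2r2*, had the largest absolute value, 0.42 (adjusted p = 0.442 by limma). *Cdc34* passed with the block, with eBayes trend and robust settings, with array weights or without the scrmb array of mouse D.

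The largest values in these lists belonged to a modifier and to a NEDD8 partner. *Ubl5*, a ubiquitin-like protein of pre-mRNA splicing, read 12.40, 12.11, 11.86 and 12.22 in the scrmb legs, and 12.94, 13.05, 12.82 and 13.13 in the MYTHO legs. The groups were apart, with a log2 fold change of 0.84 (adjusted p = 0.105 by limma, and 0.0269 with eBayes trend and robust settings). *Dcun1d4*, which helps *Ube2m* or *Ube2f* pass NEDD8 to cullins, read 6.56, 6.56, 7.20 and 7.32 against 7.85, 8.10, 8.09 and 7.36, also without overlap, with 0.94 (adjusted p = 0.157 by limma). In the same list *Rnf7*, the RING protein that works with *Ube2f*, had −0.47 (adjusted p = 0.293) with all MYTHO arrays lower, and the SUMO ligase gene *Pias3* had 0.36 (adjusted p = 0.403, not passing with the block). These were the genes that passed among 13 NEDD8 and SUMO partners, whose median was −0.04. *Rnf7* no longer passed without the MYTHO array of mouse A. Of the 8 runs with 1 array left out, *Pias3* passed in the one without the scrmb array of mouse A. It also did not pass with eBayes trend and robust settings or without the saturated rows.

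Of 9 modifier genes, *Ufm1* was lower beside *Ubl5* (−0.38, adjusted p = 0.397, not passing with the block). Of 13 ligases and partners at the endoplasmic reticulum, 2 passed lower, beside 7.58% of all rows. They were the ligase gene *Rnf5* (−0.50, adjusted p = 0.349) and *Nploc4*, a cofactor that draws ubiquitylated proteins to VCP (−0.43, adjusted p = 0.311). The list as a whole had 6 positive and 7 negative values, with a median of −0.01. Of 14 genes of the anaphase-promoting complex 1 was lower, *Cdc23* (−0.46, adjusted p = 0.390). It did not pass with the block, after subtracting array medians or with eBayes trend and robust settings. Of 18 HECT and RBR ligase genes 1 was higher, *Rnf31*, the catalytic part of the linear ubiquitin ligase (0.71, adjusted p = 0.212 by limma). Of 11 partners of RAD6 and of lysine 63 chains 0 passed, with *Trim25* at 0.50 (adjusted p = 0.481), at 0.73 without the scrmb array of mouse B (adjusted p = 0.382), where it passed, and at 0.24 without that of mouse C (adjusted p = 0.779). With single arrays left out, *Nploc4* no longer passed without scrmb C or MYTHO A, *Rnf5* without scrmb B, scrmb C, MYTHO A or MYTHO D, *Cdc23* without scrmb A, scrmb B, scrmb C, MYTHO A or MYTHO C, and *Ufm1* in each run except that without MYTHO A.

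**Figure D4:**
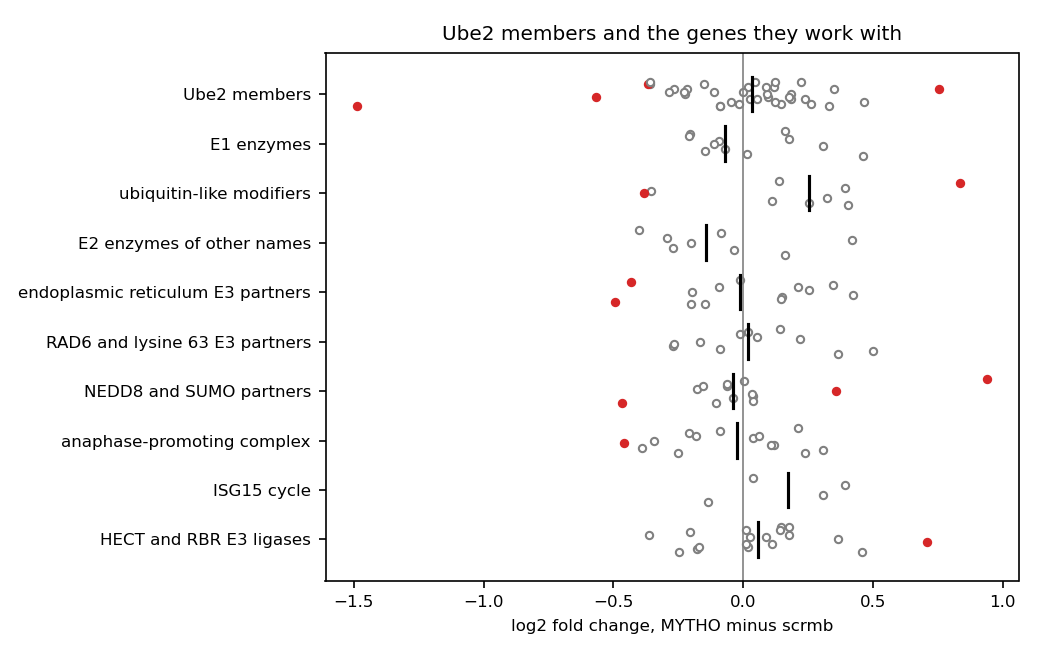
Log2 fold change (MYTHO minus scrmb, x axis) of the 38 Ube2 genes and of the lists of partner enzymes and modifiers, 1 point per gene, with black bars for the medians and red for an unadjusted p under 0.05. The medians lie between −0.14 and 0.26, and *Ube2u* at −1.49 lies outside the range of all partner genes, −0.50 to 0.94.

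Markers of other cells were compared as lists for what may move with these genes. The 4 endothelial genes had positive values and 1 passed (*Pecam1*, adjusted p = 0.366), with averages of 10.28 to 10.63 in scrmb and 10.72 to 10.97 in MYTHO that did not overlap. Of 6 blood, 6 macrophage, 4 Schwann cell and 4 adipocyte genes 0 passed in each list, with medians of 0.33, 0.12, −0.53 and −0.10. Apart from the macrophage list, their averages differed widely between arrays. Adipocyte genes averaged 4.9 to 8.8 in scrmb and 5.4 to 10.5 in MYTHO. Schwann cell genes averaged 7.8 to 10.4 in scrmb and 8.0 to 8.7 in MYTHO, and blood genes 11.3 to 13.1 and 12.2 to 14.1. The part of these markers, and of the slow-fibre genes, in the values of *Ube2u*, *Ube2k*, *Ube2q2* and *Ube2l6* was not tested.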

How the data were processed

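RNA from a piece of GAS muscle was extracted with Trizol, biotin-labelled and hybridised to Clariom S Mouse arrays, 1 array per leg. The authors deposited 1 table of gene-level log2 signals made with the Transcriptome Analysis Console 4.0.1 (SST-RMA, default settings, annotation na36, mm10); the labels also name Affymetrix Expression Console and RMA. SST-RMA rescales signals to counter the compression of fold changes on such arrays, and 18 rows sit at the ceiling of 19.93 on all 8 arrays, 0 of them Ube2 genes. Columns with the authors' group averages, fold changes, p-values and FDR were not used. Of 22206 rows, 836 name several genes and 3 none; 3 of the 38 Ube2 rows also name another gene.

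Differences were fitted with limma 3.58.1 in R 4.3.3 (lmFit and eBayes, MYTHO minus scrmb, no pairing term, as the methods for the arrays name none), with Benjamini-Hochberg adjustment over all rows and two-sided p-values. The script was tested on simulated data. Array columns carry mouse numbers, taken here as A to D, but not the labels' replicate numbers, so columns were assigned by group and paired by mouse. Same-mouse columns are legs of 1 animal, and their deviations from the group means correlated at 0.003, −0.001, 0.13 and 0.09. The highest correlation with another mouse was 0.09, 0.10, 0.05 and 0.08, above the same-mouse value for mice A and B. The pairing therefore rests on the mouse numbers. The number of arrays limits the precision. Alternatives were quantile normalization, median subtraction, signal filters, other eBayes settings, array weights, probe set choice, leaving out saturated rows, the mouse as a block, and leaving out each array.

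Values per array are given for members with an unadjusted p under 0.05 or groups without overlap, for the largest absolute value in each other role group, and for *Ube2b*, *Isg15*, *Uba7*, *Ubl5* and *Dcun1d4*, which were chosen after their values were seen, as were *Uba1*, *Herc6*, *Usp18* and the neighbours of *Ube2u*. Members, roles and lists were chosen with earlier results of these data known. Sequences and positions are from RefSeq GRCm38.p6; 37 of 38 symbols had a position. The values of 1 member and of some listed genes are not reported here.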

Additional observations from a re-analysis of the deposited data

Results flagged for a closer look

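In 6 of 80 groups of 4 arrays checked, 1 array lay far from the other 3, judged by its gap to the nearest value as a share of the range; chance gives about 1 such group in 20. For *D230025D16Rik* the MYTHO array of mouse C read 8.80, above the 8.08 to 8.20 of the others, the weakest knockdown of the 4. The MYTHO array of mouse C was also low for *Ube2b*, 12.13 beside 12.69 to 12.79, and for *Ube2j2*, 11.65 beside 11.91 to 11.93. In the scrmb legs, *Ube2a* was low in mouse C at 7.22 (others 7.84 to 7.95), *Ube2b* was low in mouse A at 12.76 (others all 12.88), and *Ube2ql1* was high in mouse D at 6.72 (others 6.04 to 6.12). The cause of these values was not tested.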

How the results depend on the processing

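*Ube2u* decides the adjusted count: 0 members passed in the analysis reported, and 1 passed after subtracting array medians, with eBayes trend and robust settings, without the saturated rows, with the mouse as a random block, and without the scrmb array of mouse D (range over the arrays left out, 0 to 1). The shares of all rows in those runs, in the same order, were 0.198%, 0.721%, 0.27%, 0.153% and 0.694%, beside 0.027% in the analysis reported. Its 2-fold count of 1 became 0 when only the upper 50% of rows by signal were kept, since *Ube2u* is then not tested (2.48% of all rows tested there passed), and ran from 1 to 2 with arrays left out, 2 without the MYTHO array of mouse C (*Ube2u* and *Ube2l6*, beside 1.27% of all rows). Members higher at p under 0.05 were 1 under all other alternatives and 0 to 3 with arrays left out (3 without scrmb A, 2 without scrmb D, 0 without MYTHO D). Members lower were 2 to 3, beside 5.82% to 9.11% of all rows. Members without overlap were 0 higher and 2 lower, 4 lower after quantile normalization (3.72% of all rows), 3 lower after subtracting array medians (3.18%), and 0 to 4 higher (4 without MYTHO C, 1 without scrmb A, scrmb D or MYTHO D) and 2 to 5 lower (5 without scrmb D, 4 without MYTHO A or MYTHO D) with arrays left out. In those runs the shares of all rows were 3.58% to 5.64% higher and 5.01% to 7.84% lower. The family median ran from −0.01 to 0.08 with arrays left out and the targeted gene from −2.98 to −2.74. The cause of these shifts was not tested.

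With the mouse as a replicate block, 1 member was higher (4.94% of all rows) and 2 lower (7.66%), the targeted gene kept −2.81 (adjusted p = 0.0156, limma), and the family median was 0.04. This fixed block changed the calls of *Ube2q2*, *Pias3*, *Cdc23*, *Ufm1*, *Atg7* and *Cdc34* given above and no other call of a member or of the 22 genes. With the mouse as a random block none of those 6 calls changed, and *Ube2u* passed the adjusted threshold (adjusted p = 0.0468, limma). Over 22 genes (8 members and 14 partners, those of the naming rule) and all alternatives, 332 results kept their side of an unadjusted 0.05, 49 lost it and 11 gained it, and 0 changed sign. Of all 38 members, 16 took both signs, among them *Ube2d2a* (−0.15 to 0.04), *Ube2e1* (−0.25 to 0.03), *Ube2f* (−0.02 to 0.15), *Ube2v2* (−0.03 to 0.19), *Ube2s* (−0.02 to 0.20), *Ube2q1* (−0.03 to 0.28) and *Ube2z* (−0.25 to 0.04). Having 4 arrays a group limits what can be seen: the median SE was 0.20 for Ube2 genes and 0.22 for all rows.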
